A study of Homo sapiens with 8 samples.

Results

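The 10 genes described here are HIF1A, EPAS1 and ARNT, which encode subunits of the hypoxia-inducible factors (HIFs), EGLN1 and EGLN3, which encode prolyl hydroxylases, and VEGFA, ADM, BNIP3, BNIP3L and NDRG1, HIF target genes outside glycolysis. They were chosen by gene symbol from the 57992 genes of the count table. Of the 10, 9 were among the 18314 genes with enough reads to be tested, and EGLN3 was not. Poly(A)-selected RNA of the human leukaemia lines U937 and KG1A was sequenced in 8 libraries. The groups were U937 in 10 mM dG, U937 in the vehicle PBS, KG1A in 10 mM dG and KG1A in PBS, with 2 libraries each. The study's title places the work in the balance of the DNA building blocks (dNTPs) and the differentiation block of acute myeloid leukaemia. All cells shared RPMI medium with dialysed serum. The labels give neither an oxygen level nor a length of treatment, and each line stands as a single example of its kind, so that a difference between the lines cannot be told apart from a difference in how they were handled.

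HIFs are pairs of an alpha subunit, made among others from HIF1A or EPAS1, and a stable partner such as ARNT. In the presence of oxygen the EGLN enzymes hydroxylate the alpha subunits, VHL binds the hydroxylated form, and the proteasome removes it. Without hydroxylation the pair accumulates, binds short response elements and raises target genes, among them EGLN1 and EGLN3, so the pathway restrains itself. Control of the alpha subunits is largely at the protein, which was not measured here: the values below are mRNA levels.

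Library totals ran from 21053724 to 31135338 counts, and levels are given as CPM, read counts per 1000000 reads of the scaled library. Mitochondrial genes took 7.93 to 8.30% of the counts in the dG libraries and 9.12 to 9.83% in the PBS libraries. The line labels were checked against marker genes. The progenitor markers CD34 and ERG were at no more than 0.776 CPM in U937, against at least 117 CPM in KG1A. The granule genes ELANE, PRTN3, CTSG and AZU1 summed to 949 to 1690 CPM in U937, while MPO stayed at or below 0.199 CPM there. These markers also moved with treatment: the granule sum was 1690 and 1630 CPM in U937 in dG, against 949 and 951 CPM in PBS. CTSG and AZU1 carried that difference: CTSG averaged 1120 CPM in dG and 499 CPM in PBS, and AZU1 333 and 152 CPM in the same order, while PRTN3 was at 99.9 and 93.8 CPM in dG against 203 and 191 CPM in PBS, and ELANE at 113 and 112 CPM against 101 and 104 CPM. LYZ, also listed for U937, moved more, with 225 and 219 CPM in U937 in dG against 24.7 and 22.7 CPM in PBS. CD33 of that list was at 53.8 and 55.4 CPM in dG against 49.1 and 51.9 CPM in PBS. CD34 averaged 1190 CPM in KG1A in dG, against 931 CPM in PBS. PROM1, listed for KG1A, was at 3.91 and 3.31 CPM there in dG, against 0.607 and 0.684 CPM in PBS. The part of these shifts, and of the mitochondrial share, in the changes below was not tested. KIT and FLT3, also listed for KG1A, were at or below 1.35 CPM in that line, and MEIS1 was at 147 to 154 CPM in U937 and at or below 0.0807 CPM in KG1A. With MPO added, the 4 granule genes summed to 46 and 25 reads in KG1A in dG and to 4 and 6 reads in KG1A in PBS. If those reads were a trace of RNA of U937 in PBS, the largest share, 0.172%, would bring 1.58 CPM of NDRG1 and at most 0.516 CPM of any other member. The same was not computed for a trace of U937 in dG, where both VEGFA and the granule sum were higher. The lowest KG1A levels of VEGFA, ADM and NDRG1 were 10.5, 2.51 and 17.9 CPM. Among markers of other cells, haemoglobin genes were at 0 in every library, and the erythroid list summed to at most 2.19 CPM. The fibroblast and epithelial list reached at most 4.96 CPM. The lymphoid list summed to 6.46 to 8.85 CPM in U937 and to 105 to 125 CPM in KG1A, where CD3D held most of it. In bulk samples such as these, fewer cells of a kind and less RNA per cell cannot be told apart.

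The letters shared by HIF response elements are ACGTG and GCGTG. Both were searched on both strands in the 250 bases before the RefSeq gene start (GRCh38.p14), of which 7 of the 10 members had at least one. Of all 35116 such windows 18.5% held ACGTG, 32.2% held GCGTG and 43.2% held either, so a match is common. Windows of 5 members held a match. The 3 below serve as examples, and the choice does not set these members apart from the others. They are BNIP3 (chr10:131981924-131982173, minus strand), EGLN1 (chr1:231422288-231422537, minus strand) and ADM (chr11:10304823-10305072, plus strand). Each is printed 5′ to 3′ in the direction of the gene, with the matches in capitals, where CACGC is GCGTG read on the other strand.
BNIP3: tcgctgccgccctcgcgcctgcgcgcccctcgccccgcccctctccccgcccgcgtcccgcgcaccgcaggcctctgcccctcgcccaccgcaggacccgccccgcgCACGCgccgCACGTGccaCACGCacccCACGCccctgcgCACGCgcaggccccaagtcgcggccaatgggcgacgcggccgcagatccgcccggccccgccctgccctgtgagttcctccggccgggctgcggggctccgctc
EGLN1: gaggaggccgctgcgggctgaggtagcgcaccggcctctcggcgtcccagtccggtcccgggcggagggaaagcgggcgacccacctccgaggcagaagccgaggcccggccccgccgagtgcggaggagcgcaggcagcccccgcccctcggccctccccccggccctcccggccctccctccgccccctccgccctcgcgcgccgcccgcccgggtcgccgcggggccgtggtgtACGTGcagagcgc
ADM: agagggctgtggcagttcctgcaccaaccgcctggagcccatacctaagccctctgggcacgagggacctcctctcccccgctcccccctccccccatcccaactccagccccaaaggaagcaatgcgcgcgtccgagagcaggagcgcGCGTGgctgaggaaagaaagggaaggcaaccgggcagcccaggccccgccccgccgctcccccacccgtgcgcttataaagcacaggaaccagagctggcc
In BNIP3 the capitals CACGTG hold ACGTG on both strands, 134 and 133 bases before the start, and CACGC occurred 143, 125, 116 and 104 bases before it. EGLN1 had a single ACGTG 13 bases before the start, and ADM a single GCGTG 101 bases before it. EPAS1 held GCGTG 117 bases and HIF1A 204 bases before the start. ARNT and EGLN3 held neither set of letters in these windows. The match is of letters alone, and binding was not measured.

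The transcripts of HIF1A, EPAS1 and ARNT rose in dG in both lines. HIF3A and ARNT2, which encode further HIF subunits, had too few reads to be tested. HIF1A (chr14:61695513-61748259) encodes the alpha subunit that most cells use. It stood at 181 and 178 CPM in U937 in dG, against 115 and 117 CPM in U937 in PBS. The KG1A libraries held 295 and 311 CPM in dG, against 239 and 226 CPM in PBS. Both dG libraries lay above both PBS libraries in each line, and every KG1A library lay above every U937 library. On the log2 scale the change was 0.64 ± 0.04 (SE) in U937 (adjusted p = 7.19e-17) and 0.38 ± 0.04 in KG1A (adjusted p = 1.64e-11, edgeR's quasi-likelihood test with Benjamini-Hochberg adjustment over all genes tested, which also gives the adjusted p-values that follow). The difference, the U937 effect minus the KG1A effect, was 0.25 ± 0.05 (adjusted p = 0.000124), and 0.37 or 0.39 without the first or the second U937 library in dG. The antisense RNA HIF1A-AS2 of the same locus had 1 and 0 reads in U937 in dG and 2 and 2 in PBS, and 15 and 14 reads in KG1A in dG and 5 and 2 in PBS. The strand setting of the counting is not given in the sources used here, so reads of HIF1A and of its antisense genes cannot be told apart with certainty where they overlap.

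EPAS1 (chr2:46293667-46386703), which encodes the alpha subunit of HIF-2, was the scarcest tested member in KG1A per length (RPKM). It stood at 42.0 and 43.3 CPM in U937 in dG, against 23.8 and 25.0 CPM in PBS. In KG1A it stood at 10.1 and 11.4 CPM in dG, against 4.94 and 4.07 CPM in PBS. The groups were apart in both lines, with U937 in PBS still above KG1A in dG. dG over PBS gave a log2 fold change of 0.81 ± 0.07 in U937 (adjusted p = 5.14e-13) and 1.26 ± 0.12 in KG1A (adjusted p = 1.29e-11, the same edgeR test). The difference between these effects, -0.46 ± 0.14 (adjusted p = 0.00608), was not firm. It lost its call or its direction in 8 of 17 alternative analyses, in which it ran from -0.59 to 0.13 with adjusted p from 0.00158 to 0.36. It was -0.31 (adjusted p = 0.144) when the second KG1A library in PBS was dropped. Without the first U937 library in dG it was -0.31 (adjusted p = 0.105), and without the second one -0.35 (adjusted p = 0.0623). On the log2(RPKM + 1) scale, which understates changes of low genes, it was 0.13.

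ARNT (chr1:150809705-150876768), the shared partner, moved least of the tested members in KG1A. It stood at 151 and 151 CPM in U937 in dG, against 113 and 109 CPM in PBS. For KG1A the values were 80.7 and 82.1 CPM in dG, against 68.7 and 68.9 CPM in PBS. The log2 fold change was 0.44 ± 0.04 in U937 (adjusted p = 1.79e-12) and 0.24 ± 0.04 in KG1A (adjusted p = 1.05e-05), and the difference was 0.20 ± 0.06 (adjusted p = 0.00484, the same edgeR test). Without either U937 library in dG that difference was 0.33. Per length, on the RPKM scale, HIF1A exceeded ARNT in every library. The ratio of their RPKM was 1.52 and 1.49 in U937 in dG, against 1.28 and 1.35 in U937 in PBS, and 4.64 and 4.79 in KG1A in dG, against 4.4 and 4.13 in KG1A in PBS. The ratio of HIF1A to EPAS1 went the other way with dG. It was 6.11 and 5.84 in U937 in dG, against 6.84 and 6.65 in U937 in PBS, and 41.6 and 38.7 in KG1A in dG, against 68.6 and 78.5 in KG1A in PBS. In both lines the mRNA ratio of the alpha subunits was thus lower in dG, with no overlap between libraries.

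Of the hydroxylase members, EGLN1 did not follow the factors in both lines, and EGLN3 was too low to tell. EGLN1 (chr1:231363751-231425044) encodes the main hydroxylase acting on HIF alpha subunits in most cells. It stood at 60.2 and 56.7 CPM in U937 in dG, against 73.3 and 75.4 CPM in PBS. In KG1A it stood at 103 and 101 CPM in dG, against 72.6 and 66.6 CPM in PBS. The dG libraries lay below the PBS libraries in U937 and above them in KG1A. On the log2 scale the change was -0.34 ± 0.05 in U937 (adjusted p = 1.41e-07) and 0.56 ± 0.05 in KG1A (adjusted p = 8.38e-13), a difference of -0.90 ± 0.07 (adjusted p = 7.64e-14, the same edgeR test). EGLN3 (chr14:33924231-34462774), a hydroxylase gene that hypoxia raises in many cells, had no read in any U937 library or in KG1A in PBS, and 1 and 2 reads in KG1A in dG. A count of 0 allows up to 3 reads in a group, or 0.0685 CPM in U937 in dG, 0.0527 CPM in U937 in PBS and 0.0574 CPM in KG1A in PBS. No change was detectable at this depth.

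Other genes that act on the HIF subunits moved in both directions. Of 14 such regulators 12 were tested. In U937, 6 rose and 3 fell in dG (median log2 fold change 0.11), and in KG1A 3 rose and 5 fell (median 0.03), against medians of 0.00 and 0.04 over all genes tested. Of all genes tested 32.4% rose and 31.5% fell in U937, and 29.6% rose and 19.6% fell in KG1A. Calls in both directions were thus common among all genes. Scaling by library size alone gave 5 higher and 4 lower in U937, and 2 higher and 5 lower, with a median of -0.03, in KG1A. EGLN2, another hydroxylase, rose in U937, with 12.6 CPM in dG against 6.68 CPM in PBS (log2 fold change 0.92 ± 0.11, adjusted p = 1.54e-09, the same edgeR test). In KG1A EGLN2 was at 9.66 CPM in dG and 8.48 CPM in PBS (log2 fold change 0.18 ± 0.1, adjusted p = 0.151, the same edgeR test). VHL fell by 0.25 on the log2 scale in U937 (142 against 168 CPM), and in KG1A it was at 171 CPM in dG and 169 CPM in PBS (adjusted p = 0.63, the same edgeR test). SIAH1, a ubiquitin ligase for the EGLN enzymes, rose in both lines, with log2 fold changes of 0.85 ± 0.07 in U937 and 0.39 ± 0.06 in KG1A. CITED2, which competes with HIF for its coactivator, rose likewise by 0.70 ± 0.03 and 0.51 ± 0.05 in the same lines. Genes of the ligase that VHL serves in moved unlike each other. RBX1 fell by 0.27 on the log2 scale in U937 and by 0.16 in KG1A. CUL2 rose in U937 (131 CPM in dG against 114 CPM in PBS, log2 fold change 0.20 ± 0.04) and fell by 0.26 in KG1A. ELOB was at 45.9 CPM in dG and 45.6 CPM in PBS in U937 (adjusted p = 0.847, the same edgeR test) and fell by 0.29 in KG1A.

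**Figure D1:**
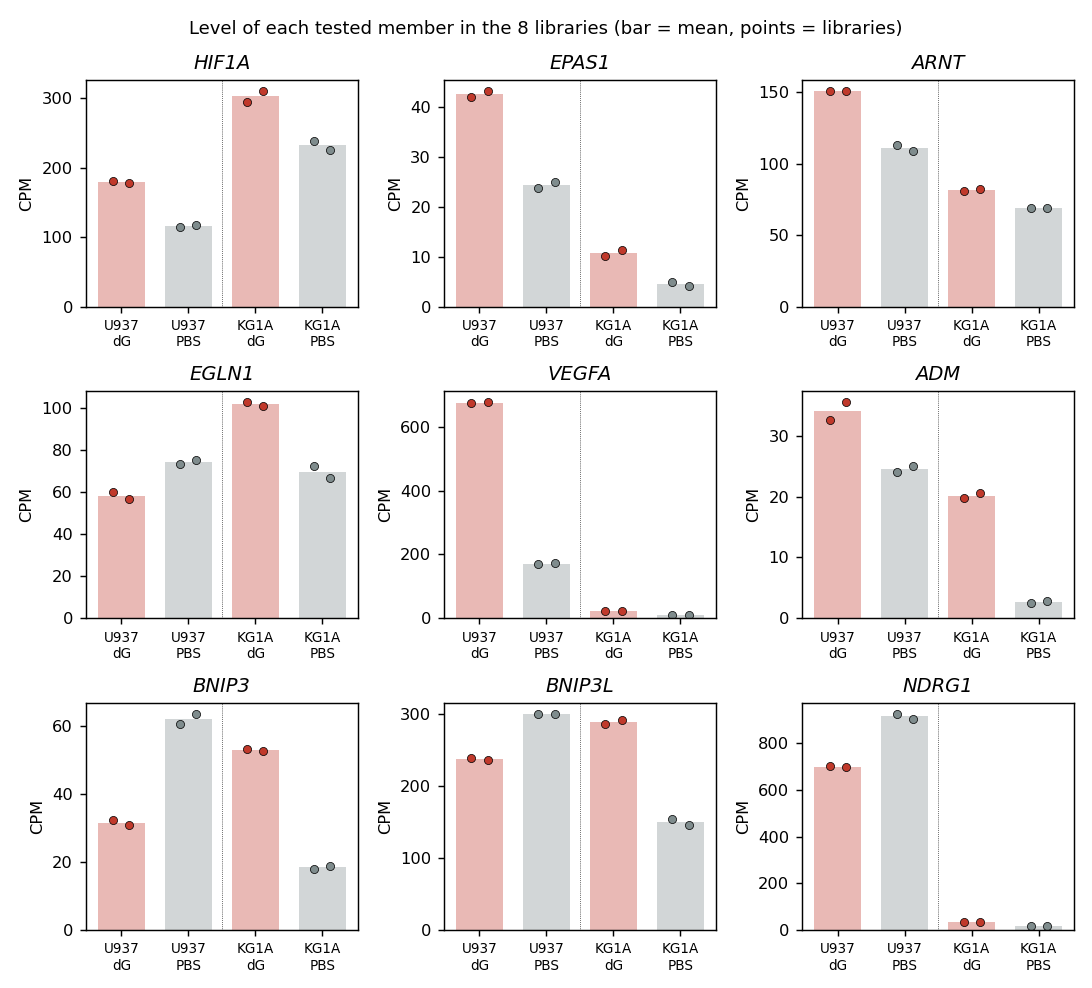
Level (CPM, linear axes from 0, a scale of its own for each gene) of the 9 tested members in the 8 libraries; bars are means of 2 libraries, points are libraries, dG is red and PBS grey. In every panel the points of each pair of dG and PBS groups are apart, and EGLN1, BNIP3, BNIP3L and NDRG1 are lower in dG in U937 but higher in dG in KG1A.

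The secreted products VEGFA and ADM rose in both lines, by unequal amounts. VEGFA (chr6:43770184-43786487) encodes the growth factor that drives vessel growth. It stood at 675 and 678 CPM in U937 in dG, against 171 and 172 CPM in PBS. KG1A had 23.3 and 22.9 CPM in dG, against 10.5 and 10.9 CPM in PBS. The groups were far apart in each line, and both U937 groups lay above both KG1A groups. The log2 fold change of 1.98 ± 0.03 in U937 (a 3.94-fold rise, adjusted p = 6.99e-34) ranked 1279 of 18314 by size in that line. In KG1A it was 1.11 ± 0.07 (2.15-fold, adjusted p = 4.06e-16), and the difference between the effects was 0.87 ± 0.08 (adjusted p = 1.23e-11, the same edgeR test).

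ADM (chr11:10304680-10307397) encodes adrenomedullin, a peptide that widens vessels. It stood at 32.7 and 35.6 CPM in U937 in dG, against 24.1 and 25.0 CPM in PBS. In KG1A it stood at 19.8 and 20.6 CPM in dG, against 2.51 and 2.77 CPM in PBS. KG1A in dG thus came near, but stayed below, the level of U937 in PBS. dG over PBS gave a log2 fold change of 0.47 ± 0.07 in U937 (1.39-fold, adjusted p = 1.31e-07) and 2.92 ± 0.11 in KG1A (7.58-fold, adjusted p = 4.94e-22), where it ranked 242 of 18314 by size. The difference between the effects was -2.45 ± 0.14 (adjusted p = 2.61e-17, the same edgeR test). The ratio of VEGFA to ADM in RPKM therefore moved in opposite ways, being 3.90 and 3.57 in U937 in dG, against 1.34 and 1.30 in U937 in PBS, and 0.222 and 0.210 in KG1A in dG, against 0.787 and 0.740 in KG1A in PBS.

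Of 13 other ligand and receptor genes of VEGF and adrenomedullin 9 were tested, and none fell in dG. In U937 3 of them rose and in KG1A 6 (4 of them with scaling by library size alone), with median log2 fold changes of 0.37 and 0.23. Among all genes tested 32.4% rose and 31.5% fell in U937, and 29.6% rose and 19.6% fell in KG1A. The U937 count of rises was thus near the share of all genes. NRP1, a co-receptor for VEGF, rose in both lines, to 9.98 CPM in dG against 7.20 CPM in PBS in U937 and to 10.2 against 3.16 CPM in KG1A. NRP2, its paralogue, rose 2.84-fold in U937 (40.7 against 14.3 CPM). FLT1, a VEGF receptor, rose 1.78-fold in KG1A (119 against 66.7 CPM), and the ligand gene VEGFB rose 1.17-fold there. FLT4, the receptor for the lymphatic VEGF forms, had 67 and 62 reads in KG1A in dG and 0 and 1 in PBS, a ratio of 128, scaled for library size, with a 95% counting interval from 22.5 to 5080. CALCRL, the adrenomedullin receptor, passed the test in U937 on 2 and 2 reads in dG and none in PBS, too few for a fold change. KDR, the main signalling receptor for VEGFA, was too low for testing, at no more than 0.0388 CPM in the group means. Markers of endothelial cells moved with these receptors: their summed level was 178 to 180 CPM in U937 in dG, against 99.4 to 101 CPM in PBS, and 77.2 to 80.3 CPM in KG1A in dG, against 56.8 to 58.8 CPM in PBS. PECAM1, which myeloid cells also make, held most of that sum. The defining endothelial gene CDH5 was at 0 in every library.

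BNIP3 and BNIP3L, which encode related receptors on the outer mitochondrial membrane that bring mitochondria to autophagy, fell in U937 and rose in KG1A. BNIP3 (chr10:131966455-131982013) stood at 32.2 and 30.9 CPM in U937 in dG, against 60.7 and 63.6 CPM in PBS. The KG1A libraries held 53.2 and 52.7 CPM in dG, against 17.9 and 18.8 CPM in PBS. The order of the lines turned round with treatment: in PBS the U937 libraries were above the KG1A libraries, and in dG they were below them. The log2 fold change was -0.98 ± 0.06 in U937 (adjusted p = 8.67e-18) and 1.53 ± 0.06 in KG1A (adjusted p = 1.44e-21, the same edgeR test). The difference of -2.50 ± 0.08 (adjusted p = 6.73e-24) was close in size to that of ADM, and kept its call in each of 17 alternative analyses, between -2.57 and -2.06.

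BNIP3L (chr8:26382898-26505636), also called NIX and known for clearing mitochondria from maturing red cells, stood higher than BNIP3 in every library per length (RPKM). It was at 238 and 235 CPM in U937 in dG, against 299 and 300 CPM in PBS. In KG1A it was at 286 and 291 CPM in dG, against 154 and 145 CPM in PBS. The turn of order between the lines was the same as for BNIP3. On the log2 scale the change was -0.34 ± 0.03 in U937 (adjusted p = 4.9e-11) and 0.95 ± 0.04 in KG1A (adjusted p = 2.48e-22), a difference of -1.29 ± 0.05 (adjusted p = 5.47e-22, the same edgeR test). The RPKM ratio of BNIP3L to BNIP3 was 9.15 and 9.39 in U937 in dG, against 6.11 and 5.81 in U937 in PBS, and 6.64 and 6.83 in KG1A in dG, against 10.7 and 9.55 in KG1A in PBS. It was thus higher in dG in U937 and lower in dG in KG1A, with no overlap between libraries.

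Reads of BNIP3 are uncertain in part, since a processed copy, BNIP3P1 on chromosome 14, has a transcript 97.8% identical to that of BNIP3 over 1568 bases. The copy was counted at 30.8 to 44.1 reads for every 100 reads of BNIP3. This share was lower in dG in both lines. It was 30.8 and 33.1 in U937 in dG, against 44.1 and 40.5 in PBS, and 37.5 and 36.2 in KG1A in dG, against 41.9 and 39.5 in PBS. BNIP3P1 averaged 10.1 CPM in U937 in dG against 26.3 CPM in PBS, and 19.5 CPM in KG1A in dG against 7.46 CPM in PBS. It thus moved in the directions of BNIP3. In U937 its log2 fold change was -1.38 ± 0.08, against -0.98 ± 0.06 for BNIP3. In KG1A it was 1.39 ± 0.09, against 1.53 ± 0.06 for BNIP3. How reads that match both genes were assigned is not given in the sources used here. Adding the reads of the copy to BNIP3, and those of the short copy HIF1AP1 to HIF1A, an alternative chosen after seeing the data, changed no call.

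**Figure D2:**
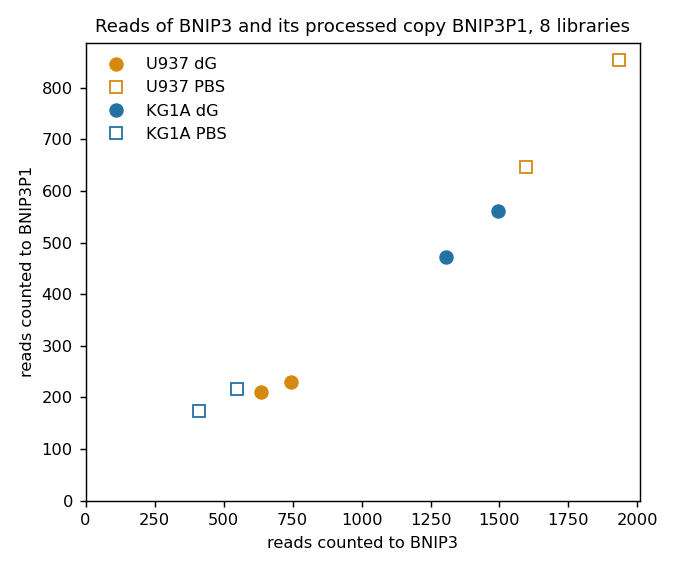
Reads counted to the processed copy BNIP3P1 (vertical axis) against reads counted to BNIP3 (horizontal axis) in the 8 libraries, unscaled; orange marks U937, blue KG1A, filled circles dG and open squares PBS. The copy held 30.8 to 44.1 reads per 100 reads of BNIP3, with lower shares in dG than in PBS in each line.

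Of 14 other mitophagy genes listed 13 were tested. In each line 8 rose and 2 fell in dG (median log2 fold change 0.48 in U937 and 0.36 in KG1A), and 7 rose in both. Over all genes tested 32.4% rose and 31.5% fell in U937, 29.6% rose and 19.6% fell in KG1A, and 15.4% rose in both. None of the 13 rose in KG1A and fell in U937. Only 4.93% of all genes showed that combination, so its absence among 13 genes says little. OPTN, an adaptor between ubiquitin-marked mitochondria and the autophagosome, rose in both lines, to 126 CPM in dG against 54.0 CPM in PBS in U937 (log2 fold change 1.22 ± 0.04) and to 111 against 48.7 CPM in KG1A (1.19 ± 0.04). In U937 the adaptor SQSTM1 rose 2.14-fold, GABARAPL1, which builds the autophagosome membrane, 2.93-fold, and the kinase PINK1, which marks damaged mitochondria, 1.81-fold. In KG1A the adaptor CALCOCO2 rose 1.44-fold and GABARAP 1.49-fold.

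NDRG1 (chr8:133237171-133302022) encodes a cytoplasmic protein raised by hypoxia, iron loss and differentiation in many cells. It stood at 702 and 699 CPM in U937 in dG, against 928 and 907 CPM in PBS. In KG1A it stood at 31.7 and 32.1 CPM in dG, against 17.9 and 18.1 CPM in PBS. The lines were apart by far more than either changed. dG over PBS gave a log2 fold change of -0.39 ± 0.03 in U937 (adjusted p = 3.71e-14) and 0.83 ± 0.06 in KG1A (adjusted p = 7.4e-15), a difference of -1.22 ± 0.06 (adjusted p = 5.97e-18, the same edgeR test). Of the 4 related genes listed, NDRG3 and SGK1 were tested. NDRG3, a paralogue, fell by 0.46 on the log2 scale in U937 and by 0.66 in KG1A. SGK1, a kinase that phosphorylates the NDRG1 protein, rose 8.04-fold in U937 (353 against 43.9 CPM) and 1.70-fold in KG1A (6.12 against 3.58 CPM).

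Counted together, 5 of the 9 tested members rose and 4 fell in dG in U937, where 64.0% of all genes tested were called, 32.4% as higher and 31.5% as lower. In KG1A 9 of 9 rose, where 49.1% of all genes were called, 29.6% as higher and 19.6% as lower. The share called in U937 is thus so high that a call there says little by itself. Of the members 1 rose at least 2-fold in U937 (VEGFA; 9.71% of all genes did) and 4 in KG1A (EPAS1, VEGFA, ADM and BNIP3; 5.64% of all genes did), though on the log2(RPKM + 1) scale EPAS1 and VEGFA in KG1A were at 0.58 and 0.54. No member fell at least 2-fold, as 7.74% of all genes did in U937 and 1.15% in KG1A. BNIP3 in U937, at -0.98, was close to that limit and passed it with library size alone (-1.05), with the reads of its copy added (-1.09) and without the first U937 library in PBS (-1.02). The median log2 fold change of the 9 was 0.44 in U937 and 0.95 in KG1A, against 0.00 and 0.04 over all genes tested. The dG and PBS libraries of each line did not overlap for any of the 9, as for 78.9% of all genes in U937 and 70.2% in KG1A. EGLN1, BNIP3, BNIP3L and NDRG1 were lower in U937 and higher in KG1A, a combination that 4.93% of all genes showed. HIF1A, EPAS1, ARNT, VEGFA and ADM were higher in both lines, as were 15.4% of all genes. For each of these genes and lines the direction and the call held in all 18 alternative analyses.

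**Figure D3:**
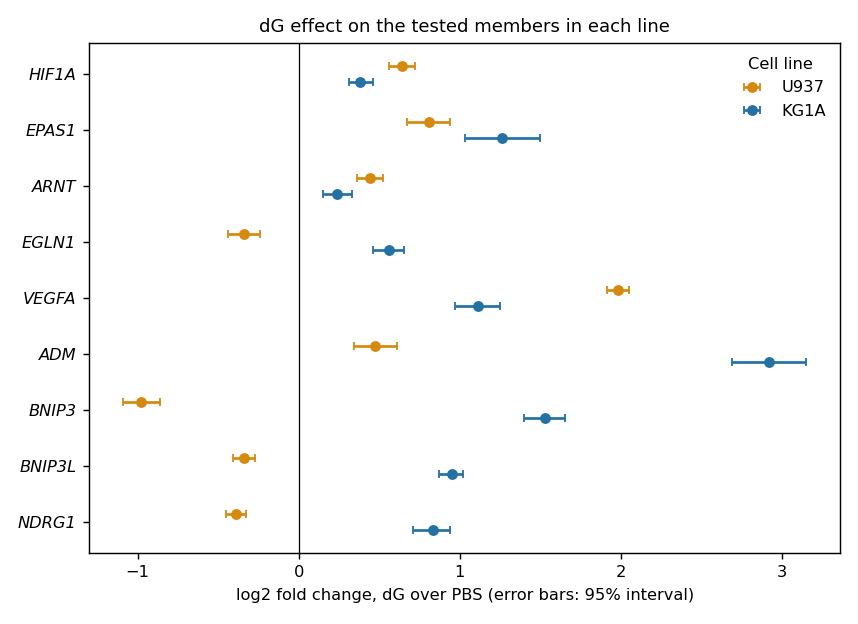
Log2 fold change, dG over PBS, of the 9 tested members (rows) in U937 (orange, upper point of each pair) and KG1A (blue, lower point), with 95% intervals as bars. The KG1A points are all right of 0, from 0.24 for ARNT to 2.92 for ADM, while the U937 points run from -0.98 for BNIP3 to 1.98 for VEGFA.

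The difference between the effects was called for all 9 members, against 44.1% of all genes tested. It was higher in U937 for HIF1A, ARNT and VEGFA (17.6% of all genes) and lower in U937 for EPAS1, EGLN1, ADM, BNIP3, BNIP3L and NDRG1 (26.4% of all genes). At least 2-fold lower in U937 were 4, ADM, BNIP3, BNIP3L and NDRG1 (7.04% of all genes), and none was at least 2-fold higher (4.02%). VEGFA, at 0.87, was near that limit: its difference was 1.00 without either U937 library in dG and with no filter, 1.08 on the log2(RPKM + 0.1) scale and 1.41 on the log2(RPKM + 1) scale. On that last scale NDRG1 was at -0.86. The median difference was -0.90 for the members and -0.10 over all genes. DESeq2 size factors brought the median of all genes to 0.00 and the genes called to 4021 higher and 3898 lower, in place of 3230 and 4841. All 9 member differences kept their direction and call under that scaling, and all but that of EPAS1 did so under every other alternative.

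HIF target genes listed beside the members were also counted in both lines. Of 36 other non-glycolytic targets 31 were tested. In U937 8 rose and 15 fell in dG (median log2 fold change -0.22), while in KG1A 20 rose and 1 fell (median 0.62), and 11 fell in U937 and rose in KG1A. Over all genes tested 32.4% rose and 31.5% fell in U937, 29.6% rose and 19.6% fell in KG1A, and 4.93% fell in U937 and rose in KG1A. Among these 11 were TMEM45A, a membrane protein gene, with 3.62 CPM in U937 in dG against 14 CPM in PBS and 5.91 against 2.04 CPM in KG1A, and P4HA1, which encodes a collagen prolyl hydroxylase and rose 2.87-fold in KG1A (193 against 67.1 CPM). The histone demethylase gene KDM3A, another of the 11, changed by -0.26 ± 0.04 in U937 and 0.83 ± 0.04 in KG1A on the log2 scale. Among the larger changes in U937, BHLHE41, a transcriptional repressor of the clock, rose 3.37-fold (114 against 33.8 CPM). LOXL2, a collagen crosslinking enzyme gene, fell to 0.501 CPM in U937 in dG, against 1.46 CPM in PBS. In KG1A STC2, a secreted glycoprotein gene, rose 2.64-fold (2.07 against 0.788 CPM) and HMOX1, a haem-degrading enzyme gene, rose 3.49-fold from a very low level (0.662 against 0.198 CPM).

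The glycolytic targets are given for comparison. In U937 3 of 21 rose and 18 fell, against 32.4% and 31.5% of all genes (median log2 fold change -0.62), and in KG1A 16 rose and none fell, against 29.6% and 19.6% of all genes (median 0.45), though scaling by library size alone gave 14 higher and 1 lower in KG1A. The difference between the effects was lower in U937 for 20 of the 21, as for 26.4% of all genes tested. LDHA, which makes lactate, fell to 405 CPM in U937 in dG, against 1020 CPM in PBS, and the enolase gene ENO1 to 1670 against 3520 CPM. GPI, the enzyme of the second step of glycolysis, fell to 608 against 1250 CPM. PFKFB4, which sets the pace of glycolysis through a regulator sugar, fell to 48.6 against 117 CPM in U937 and rose to 27.2 against 5.05 CPM in KG1A. The glucose carrier SLC2A3 rose 2.84-fold, ENO2 3.56-fold and the lactate carrier SLC16A3 1.99-fold in KG1A.

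**Figure D4:**
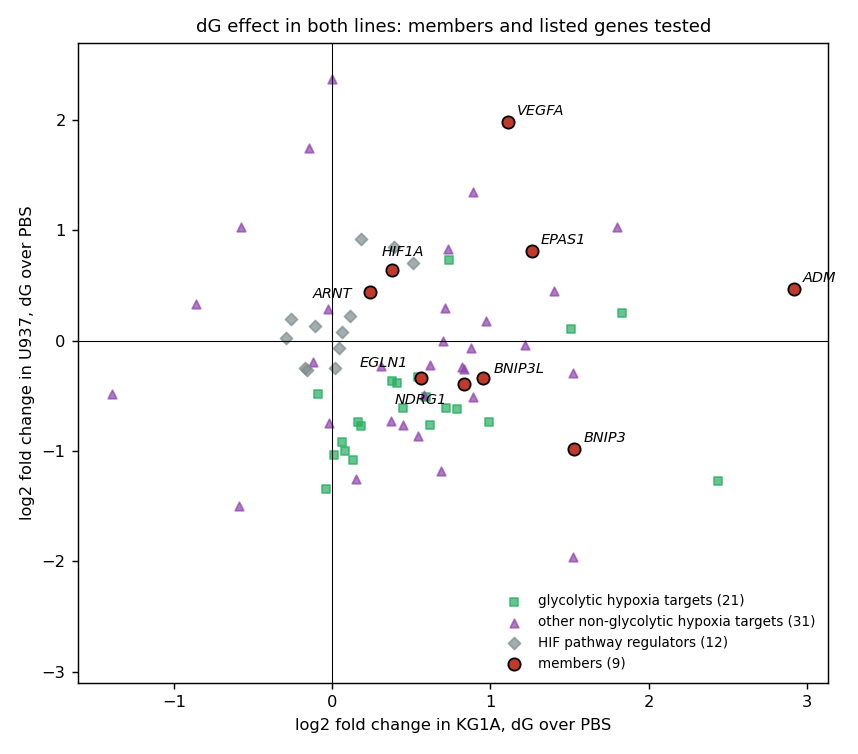
Log2 fold change, dG over PBS, in U937 (vertical axis) against KG1A (horizontal axis) for the 9 tested members (red circles, named), 31 other non-glycolytic targets (purple triangles), 21 glycolytic targets (green squares) and 12 HIF regulators (grey diamonds). EGLN1, NDRG1, BNIP3L and BNIP3 lie with most glycolytic targets below 0 on the vertical axis and right of 0 on the horizontal axis, and the factors lie with VEGFA and ADM above and right of 0.

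In PBS the lines differed widely before any treatment, as did 82.3% of all genes tested. These comparisons share their PBS libraries with the dG comparisons above. Of the 9 tested members 7 were higher in U937 (41.4% of all genes), HIF1A was lower (40.8%), and EGLN1 did not pass the test. At least 2-fold higher in U937 were 6 (22.7% of all genes) and at least 2-fold lower 1, HIF1A (21.2%). BNIP3L and HIF1A lay on the 2-fold limit itself, and BNIP3L was at 0.95 without the second KG1A library in PBS, while HIF1A was at -0.97 without the first and at -0.99 with only the PBS libraries or without any single U937 library. The median log2 fold change, U937 over KG1A, was 1.76, against 0.01 over all genes. NDRG1 averaged 917 ± 14.6 CPM in U937 and 18.0 ± 0.112 CPM in KG1A (SD, n = 2 each), 51.0-fold apart (log2 fold change 5.67 ± 0.04, adjusted p = 8.39e-46 by the same edgeR test). VEGFA was 16.0-fold higher in U937 (95% interval of the log2 fold change from 3.90 to 4.11). In the same direction, with log2 fold changes and SE, stood ADM, 9.22-fold (3.20 ± 0.11), EPAS1 5.45-fold (2.45 ± 0.10), BNIP3 3.38-fold (1.76 ± 0.06), BNIP3L 2.00-fold (1.00 ± 0.04) and ARNT 1.62-fold (0.69 ± 0.04). HIF1A averaged 116 ± 1.5 CPM in U937 and 232 ± 9.40 CPM in KG1A (SD, n = 2 each), a log2 fold change of -1.01 ± 0.04. EGLN1 averaged 74.3 ± 1.47 CPM in U937 and 69.6 ± 4.27 CPM in KG1A, a log2 fold change of 0.10 ± 0.05 (adjusted p = 0.0551, edgeR's quasi-likelihood test). It ran from 0.03 to 0.16 over 18 alternatives, with adjusted p from 0.0138 to 0.636. Dropping the first KG1A library in PBS brought it past the threshold (0.16, adjusted p = 0.0138), as did dropping the first (0.11, adjusted p = 0.0292) or the second (0.11, adjusted p = 0.0287) U937 library in dG. Dropping the second KG1A library in PBS gave 0.03 (adjusted p = 0.636). The libraries of the lines did not overlap for any of the 9, as for 90.4% of all genes.

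The order of the 4 groups took few forms. EPAS1, ARNT, VEGFA and ADM ran, from high to low, U937 in dG, U937 in PBS, KG1A in dG and KG1A in PBS. BNIP3 and BNIP3L ran U937 in PBS, KG1A in dG, U937 in dG and KG1A in PBS. HIF1A ran KG1A in dG, KG1A in PBS, U937 in dG and U937 in PBS, NDRG1 ran U937 in PBS, U937 in dG, KG1A in dG and KG1A in PBS, and EGLN1 ran KG1A in dG, U937 in PBS, KG1A in PBS and U937 in dG. Neighbouring groups in these orders did not overlap in CPM. Per length, NDRG1 was the most abundant member in U937, at 73.2 ± 0.97 RPKM in dG and 92.0 ± 2.37 RPKM in PBS (SD, n = 2 each). In KG1A the most abundant was BNIP3L in dG, at 65.0 ± 0.652 RPKM, and HIF1A in PBS, at 45.9 ± 1.73 RPKM.

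The genes whose levels ran most like each member's were found from the root mean square (RMS) difference of log2 CPM, centred on each gene's mean, over the 8 libraries. The closest were VPS8 (0.0382) and RAB5A (0.0452) for ARNT, NLK (0.0521) and MPHOSPH9 (0.0559) for HIF1A, EFCAB11 (0.0631) and PRKX (0.0680) for EGLN1, and GPR19 (0.0814) and FBN1 (0.0982) for BNIP3L. CPT1B (0.128) and GMPR (0.132) were closest to EPAS1, ETV5 (0.134) and GBGT1 (0.255) to BNIP3, and KIAA1549 (0.153) and the glycolytic target PDK1 (0.176) to NDRG1. JAG2 (0.210) and PDLIM7 (0.228) were closest to ADM, and CD300C (0.213) and MST1 (0.238) to VEGFA. Among the members themselves the closest pair was BNIP3 and BNIP3L (0.316). The 8 libraries form 4 groups, so these distances rest on few independent points.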

How the data were processed

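RNA of 8 libraries was measured, 2 for each of U937 in dG, U937 in PBS, KG1A in dG and KG1A in PBS. Per the labels' protocols, a Kapa mRNA kit was used. The submitters' processing notes name bcl2fastq 2.18.0.12, TopHat2, HTSeq 0.11.2 and the build hg38 (GRCh38). Their roles, the annotation, the strand setting and the handling of reads with several matches are not given in the sources used here. The table of whole-number read counts per gene was used as the authors deposited it. The deposited RPKM table was recomputed: the authors' RPKM equalled the counts divided by exon length and by a library size scaled with edgeR's TMM over all genes. RPKM were used for levels compared between genes and in alternatives, CPM for levels of a gene. Whether the 2 libraries of a group came from separate cultures is not given in the labels, and p-values then reflect no more than the scatter between the libraries of a group, possibly technical. Of the gene identifiers, 57388 of 57992 matched GENCODE 29, which supplied gene types, and the member coordinates were equal in both. ELOB was matched by identifier under the older symbol of the table.

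Genes were tested with edgeR 4.0.16 (R 4.3.3; quasi-likelihood F test, two-sided, filterByExpr, TMM), all 8 libraries in 1 model with a mean per line and treatment (4 residual and 31 prior degrees of freedom; common biological coefficient of variation 2.51%). P-values were adjusted by Benjamini-Hochberg over 18314 genes, with a threshold of 0.05. Standard errors were derived from the F statistic, and ± after a log2 fold change is that error. The code was tested on simulated data. Alternatives used DESeq2 1.42.0 (test and size factors), limma 3.58.1 on log2(RPKM + 1) and log2(RPKM + 0.1), library size alone, no filter, only the libraries compared, the replicate number as a block and each library left out. Counting intervals (95%) and the floor of 3 counts in a group cover counting error only. Named beside the members are, per list and line, up to 4 called genes with the largest log2 fold change, the 2 genes closest to each member over the 8 libraries, and VHL, KDM3A, KDR and HIF1A-AS2, which were chosen after their values were seen. Some genes that this rule names are not reported here. The members, the lists (HIF regulators, other non-glycolytic targets, glycolytic targets, VEGF and adrenomedullin genes, mitophagy genes, NDRG genes and cell markers) and the tests were chosen with earlier results of these data known. Promoter windows are from RefSeq and were matched by symbol; they are placed by RefSeq's starts, which need not be the gene bounds of the count table, and the 3 printed windows overlap those bounds. Copies were compared with blastn 2.17.0.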

Additional observations from a re-analysis of the deposited data

Results flagged for a closer look

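For each of the 9 tested members a test of the difference between the dG effects in U937 and KG1A was called in the main analysis, though for EPAS1 it was not firm. The U937 effect minus the KG1A effect, in log2 units, was -2.50 for BNIP3, -2.45 for ADM, -1.29 for BNIP3L, -1.22 for NDRG1 and -0.90 for EGLN1. It was 0.87 for VEGFA, 0.25 for HIF1A and 0.20 for ARNT, and over the alternatives it ran from 0.84 to 1.41, from 0.21 to 0.39 and from 0.16 to 0.33 for these genes. For EPAS1 it was -0.46, ran from -0.59 to 0.13, and kept its direction and call in 9 of 17 alternatives. BNIP3, BNIP3L, NDRG1 and EGLN1 moved in opposite directions in the lines, and ADM, VEGFA, HIF1A and ARNT in the same direction by unequal amounts. The same test called 44.1% of all genes.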

How the results depend on the processing

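For the members 639 values were recomputed: 626 kept their direction and side of the threshold, 6 lost the call, 5 gained it and 2 reversed. The counts of members called and of all genes called stayed within 1.5 times in every alternative. The reversed values were those of the EPAS1 difference between lines, 0.13 on the log2(RPKM + 1) scale with and without the filter on low values. The same difference lost its call with DESeq2's test (-0.36, adjusted p = 0.0958), on the log2(RPKM + 0.1) scale (-0.23, adjusted p = 0.25) and with no filter (-0.33, adjusted p = 0.0908), within a range of adjusted p from 0.00158 to 0.36. The cause was not tested beyond the pseudocount, which shrinks changes of low genes by construction. EGLN1 between the lines in PBS passed the threshold when scaled by library size alone (0.10, adjusted p = 0.0408) or when the PBS libraries were fitted by themselves (0.11, adjusted p = 0.0338), within a range from 0.0138 to 0.636. Replicate numbers did not pair the libraries: deviations of libraries with the same number correlated at -0.05 to 0.01. With the replicate block 9 of 9 members were called for the dG effect in each line and for the difference, 8 between the lines in PBS, and over all genes 11530 in U937, 8742 in KG1A, 7835 for the difference and 15013 in PBS. Among all genes called for the difference, 40.0% were higher in U937, and 50.8% with DESeq2 size factors. In KG1A 60.2% of the genes called were higher in dG, and 50.8% with library size alone. With 2 libraries a group, EGLN3 was limited by depth.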
